A study of Mus musculus with 18 samples.

Results

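The semaphorins, plexins and neuropilins were taken as every protein-coding mouse gene whose symbol begins with Sema or Plxn followed by a digit or a letter, together with Nrp1 and Nrp2. The rule found 31 genes among the 48529 genes with a value in the deposited quantifications: 20 semaphorins, 9 plexins and 2 neuropilins. RNA was sequenced from whole dorsal root ganglia (DRG), which hold the cell bodies of sensory neurons with their glia, vessels and immune cells. The ganglia came from lumbar levels L2, L3 and L4 on the operated side of male C57BL/KaLwRijHsd mice aged 5 to 7 weeks, and were snap frozen 24 days after surgery. For the MM group, 5TGM1-GFP, a fluorescently marked line of malignant plasma cells (myeloma) from mice, was placed in the femur of 9 animals. The 9 SHAM animals received vehicle in the same bone. Both groups share the host, a substrain in which the parent tumours of this line arose, and the labels name no genetic change in the mice and no batch.

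Semaphorins are secreted or membrane-bound guidance cues. Plexins are their main receptors and act inside the cell on small GTPases such as Rap1 and R-Ras, which changes the actin cytoskeleton and integrin adhesion. Most secreted class 3 semaphorins need a neuropilin as a binding co-receptor, while classes 4 to 7 bind plexins directly. In the developing DRG these proteins steer and prune sensory axons; in the adult they also act on glia, vessels and immune cells.

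Promoter windows are shown first for 6 genes whose RNA values carry the results below, each with a single start in the RefSeq table for GRCm38.p6. Sema7a and Plxnc1 are a ligand and its receptor and were among the most abundant of the 31 genes. Plxnb1, Sema4g and Sema5a moved with Schwann cell markers from library to library, and Plxna2 moved with markers of sensory neurons. Each line gives the 250 bases before the start, 5′ to 3′ on the gene's own strand, with every GC box (GGGCGG, or CCGCCC on the other strand) in capitals.
Sema7a, chr9:57939862-57940111, plus strand: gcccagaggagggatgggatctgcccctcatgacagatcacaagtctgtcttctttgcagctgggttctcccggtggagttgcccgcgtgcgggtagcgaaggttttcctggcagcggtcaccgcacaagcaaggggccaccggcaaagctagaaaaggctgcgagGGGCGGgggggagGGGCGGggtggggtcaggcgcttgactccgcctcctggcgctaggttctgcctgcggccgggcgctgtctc
Plxnc1, chr10:94944846-94945095, minus strand: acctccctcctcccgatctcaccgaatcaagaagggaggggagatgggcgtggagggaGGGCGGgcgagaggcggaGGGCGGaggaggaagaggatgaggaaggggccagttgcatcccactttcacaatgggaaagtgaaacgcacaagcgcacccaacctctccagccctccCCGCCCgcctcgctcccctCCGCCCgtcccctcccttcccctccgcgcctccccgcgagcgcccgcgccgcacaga
Plxnb1, chr9:109095186-109095435, plus strand: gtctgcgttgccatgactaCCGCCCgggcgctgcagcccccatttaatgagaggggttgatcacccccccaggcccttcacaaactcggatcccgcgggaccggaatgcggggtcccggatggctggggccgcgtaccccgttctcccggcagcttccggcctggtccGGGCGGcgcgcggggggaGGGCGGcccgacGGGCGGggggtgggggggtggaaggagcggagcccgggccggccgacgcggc
Sema4g, chr19:44989094-44989343, plus strand: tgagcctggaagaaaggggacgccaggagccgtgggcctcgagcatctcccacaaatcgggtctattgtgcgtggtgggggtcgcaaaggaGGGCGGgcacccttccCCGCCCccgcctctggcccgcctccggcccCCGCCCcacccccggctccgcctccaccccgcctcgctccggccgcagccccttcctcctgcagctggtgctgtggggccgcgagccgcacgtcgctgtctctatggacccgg
Sema5a, chr15:32244563-32244812, plus strand: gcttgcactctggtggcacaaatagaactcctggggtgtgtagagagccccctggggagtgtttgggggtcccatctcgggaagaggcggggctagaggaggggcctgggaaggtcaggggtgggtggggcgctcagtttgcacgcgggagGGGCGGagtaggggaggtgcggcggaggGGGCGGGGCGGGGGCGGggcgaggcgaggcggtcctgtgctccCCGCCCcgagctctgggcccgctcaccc
Plxna2, chr1:194619579-194619828, plus strand: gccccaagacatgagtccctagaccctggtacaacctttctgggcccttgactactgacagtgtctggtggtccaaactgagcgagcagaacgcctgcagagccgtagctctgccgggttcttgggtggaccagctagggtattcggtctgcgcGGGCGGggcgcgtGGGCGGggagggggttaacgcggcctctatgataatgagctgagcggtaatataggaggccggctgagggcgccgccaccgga

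The 6 windows held between 2 and 5 GC boxes each, and their GC content lay between 62.8% in Plxna2 and 75.2% in Plxnb1. The RefSeq table held a window for 26 of the 31 genes and 37 windows in all, since some genes have several starts. A GC box stood in 27 of the 37 windows (73.0%), against 32.7% of all 32851 windows of that length in the table. The median GC content was 64.0% in these windows and 52.4% in all. A TATA box (TATAAA, both strands) stood in 0 of the 37 windows, against 12.4% of all windows. The core motif of SOX factors (ACAAAG) stood in 5 windows, which is 13.5%, against 16.5% of all. The letters TGACTCA (AP-1) and CACGTG (E box) were also searched on both strands. Each stood in 2 of the 37 windows (5.4%), against 4.5% and 6.0% of all windows. The 6 printed windows held none of the other 4 motifs. These matches describe letters in a window and locate no binding.

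Between 19014161 and 21538262 estimated reads were assigned to genes in each library, and the 31 genes held between 0.198% and 0.257% of them. Markers of sensory neurons were present in every library. Their summed level lay between 5637 and 11240 CPM (counts scaled to the size of the library with edgeR's TMM factors) in MM and between 8465 and 10860 CPM in SHAM. The immunoglobulin transcript Ighg2b lay at 2196.72 CPM in MM5, 2333.55 in MM8 and 4374.23 in MM9, at 11.67 to 389.93 CPM in the other MM libraries, and at no more than 16.37 CPM in SHAM. Macrophage markers were higher in MM for 6 of 8 genes by edgeR at an adjusted p under 0.05, and 0 of 8 neuronal, 0 of 7 Schwann cell, 0 of 5 satellite glia, 0 of 8 endothelial and 0 of 5 fibroblast markers passed in either direction. Of the other lists, 6 of 7 tested myeloma and plasma cell markers were higher and 5 of 5 erythroid markers lower, and no marker of pericytes (4 tested), T cells (2), skeletal muscle (5), fat (3) or neutrophils (4) passed. Summed skeletal muscle markers reached 1767 CPM in MM and 17230 CPM in SHAM. The mean log2 level of these markers was highest in SHAM8 (11.35) and SHAM7 (9.12). In whole ganglia, fewer cells of a type and less RNA per cell cannot be told apart.

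All classes of the family were present in the ganglia. Levels between genes are given in TPM, the deposited unit that is scaled to both transcript length and library size. Averaged over all 18 libraries, 30 of the 31 genes had at least 1 TPM and 19 had at least 10 TPM. The secreted class 3 genes summed to 215 ± 69.0 TPM in MM (SD, n = 9) and 204 ± 53.0 TPM in SHAM (n = 9), most of it from Sema3b. The 4 plexins A summed to 66.2 ± 13.8 TPM in MM and 75.9 ± 9.08 TPM in SHAM. The 3 plexins B gave 36.6 ± 11.5 and 31.5 ± 5.51 TPM, and the 2 neuropilins gave 48.1 ± 4.85 and 54.6 ± 5.59 TPM.

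Sema3b stood at the top of the order with 144 ± 55.9 TPM (mean ± SD, n = 18). Plxnc1 followed with 85.5 ± 11.9, Sema7a with 62.0 ± 11.2 and Plxnd1 with 49.9 ± 5.65 TPM. Below them came Sema6c (47.6), Sema4f (46.0) and Sema6d (39.6), and then Sema3f (31.6), Plxna2 (27.8), Nrp1 (26.9), Sema4d (25.6), Nrp2 (24.5) and Sema5a (24.3 TPM). Plxnb2, Plxna4, Sema4b, Plxna1, Sema4c and Sema3g lay between 20.2 and 14.2 TPM. Sema4g (9.46), Plxna3 (8.78), Sema3c (8.26), Plxnb1, Plxnb3, Sema3e, Sema4a, Sema6a, Sema5b, Sema3d and Sema6b (3.83 TPM) formed the low end. Sema3a, the classic repellent of sensory axons, was near absent at 0.117 ± 0.0787 TPM. Of the 30 steps between neighbours in this order, 6 were wider than the larger of both SDs: Sema3b over Plxnc1, Plxnc1 over Sema7a, Sema7a over Plxnd1, Sema6d over Sema3f, Sema3g over Sema4g, and Sema6b over Sema3a. The other steps were no wider than that SD. This rule does not pair values by library and tests no difference. Sema3b lay below Plxnc1 in MM3 (58.98 against 79.89 TPM) and in SHAM8 (55.83 against 85.28 TPM).

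**Figure D1:**
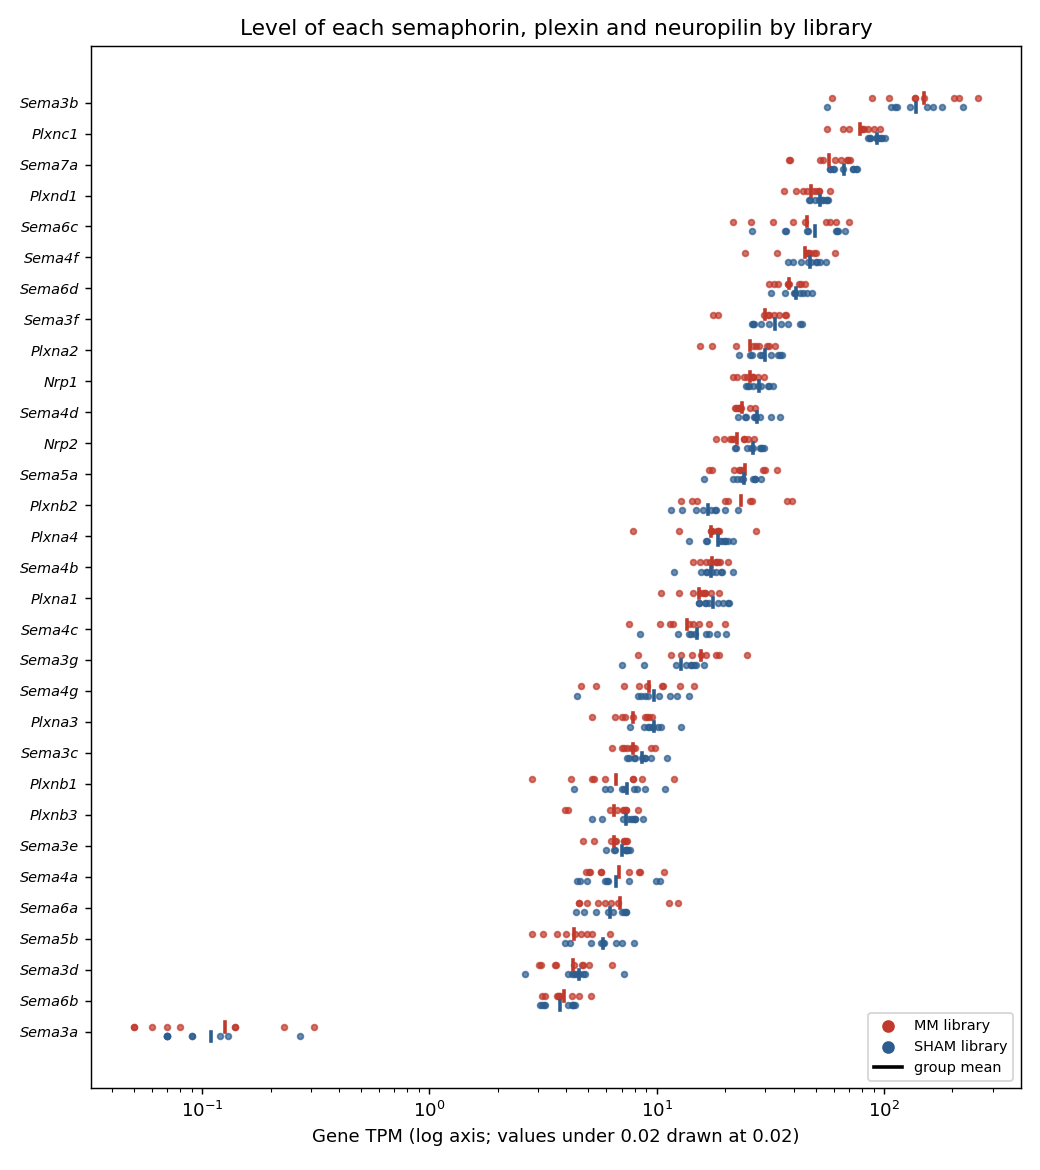
Level of each of the 31 genes in TPM (log axis) in the 9 MM (red) and 9 SHAM (blue) libraries; upright bars are group means and genes are ordered by the mean over all libraries. Sema3b is highest at 144 TPM on average, Sema3a lowest at 0.117 TPM, and the groups overlap for every gene.

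Some places in this order, those of Sema6c and Plxnb2 most, rest on transcripts that are not annotated as coding. Sema6c had 15 transcripts with a value, and its largest share of TPM, 24.9%, was held by Sema6c-211, a processed transcript of 450 bases that took 2.43% of the gene's reads in MM and 2.92% in SHAM. From coding transcripts alone Sema6c had 17.6 TPM and moved from rank 5 to rank 14. Plxnb2 moved in the same way from 20.2 TPM and rank 14 to 11.7 TPM and rank 19. Sema3b (134), Plxnc1 (83.5), Sema7a (61.1) and Plxnd1 (47.1 TPM) held ranks 1 to 4 when coding transcripts alone were counted. Lower in the order, coding transcripts alone gave 5.76 TPM for Sema4g (rank 24 in place of 20), 5.63 for Plxna3 (25 in place of 21) and 2.69 for Sema5b (30 in place of 28).

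MM and SHAM ganglia were then compared gene by gene. No semaphorin, plexin or neuropilin passed an adjusted p of 0.05 in edgeR's quasi-likelihood test: 0 of the 30 genes that passed the filter on low counts, against 2.99% of all 15774 genes tested. Sema3a did not pass the filter, with 3 to 18 reads per library. At an unadjusted p under 0.05, 5 of the 30 genes differed, and all 5 were lower in MM: Plxnd1, Plxnc1, Plxna3, Plxna1 and Nrp2. The share of all genes that were lower at that level was 8.6%, and 22.5% differed in either direction. DESeq2 with its own filter called 2 genes of the family lower in MM, Plxnd1 (adjusted p = 0.0124) and Plxnc1 (adjusted p = 0.0344), against 1.25% of 19749 genes lower and 6.98% called in either direction. limma on log2(TPM + 0.1) called 0.

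The fitted difference was lower in MM for 19 of the 30 genes, against 51.1% of all genes tested. By kind of gene this was 10 of 19 semaphorins, 7 of 9 plexins and 2 of 2 neuropilins. Under the other scalings, filters and tests the count was 20 to 22 of 30. With 1 library left out it was 17 to 22. In each, 7 to 8 plexins and both neuropilins were lower. The share of all genes that was lower under those settings is not given here. The median log2 fold change was -0.03 for semaphorins, -0.14 for plexins and -0.13 for neuropilins, beside -0.004 over all genes tested. Over all genes that median was -0.071 with limma on TPM, where 22 of the 30 were lower. Under the other settings it lay between -0.015 and -0.001. The 95% interval lay within a 1.5-fold change in both directions for 26 of the 30 genes, against 74.6% of all genes tested. The 4 whose interval reached past 1.5-fold were Sema3g, Sema3b, Sema6a and Plxnb2, each with a fitted value higher in MM. The CPM of the groups did not overlap for 0 of the 30 genes, against 0.146% of all genes tested.

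**Figure D2:**
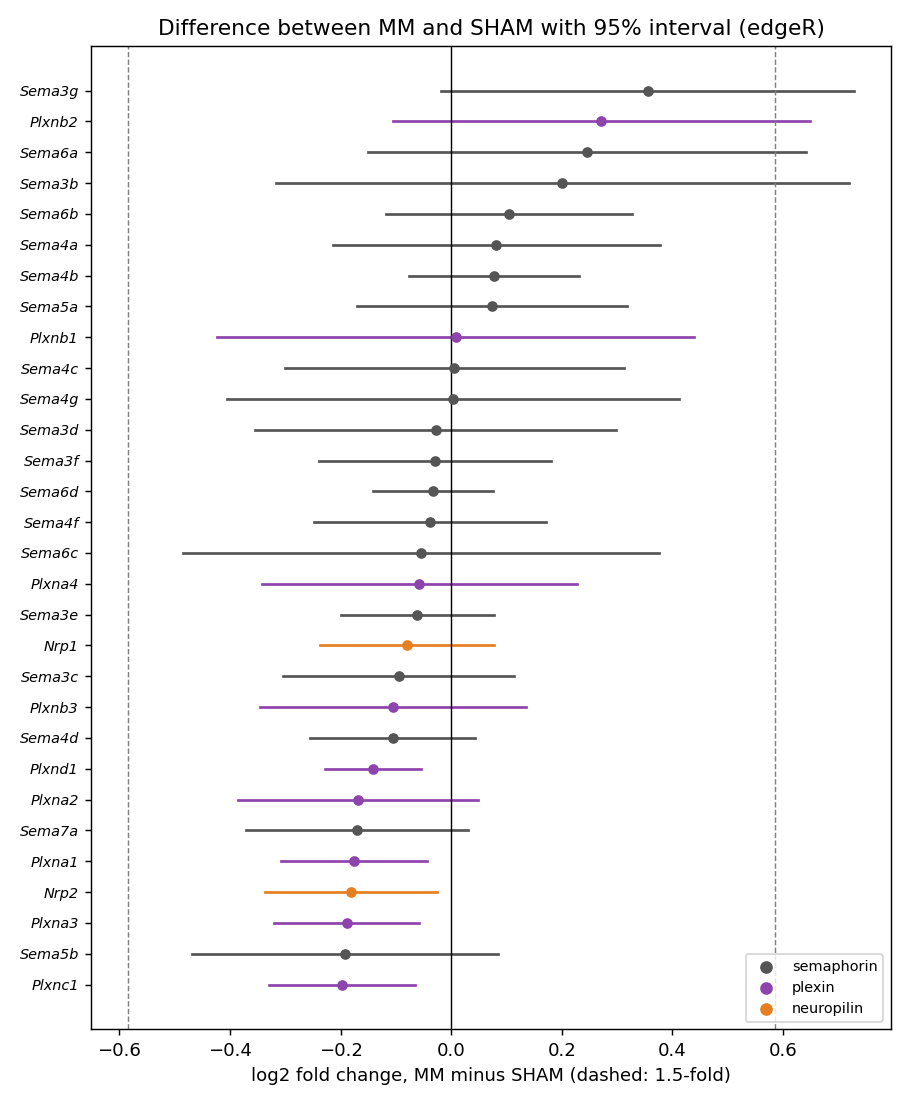
Log2 fold change of MM against SHAM with its 95% interval from edgeR for the 30 genes that passed the filter, ordered by value; colours mark semaphorins, plexins and neuropilins and dashed lines mark a 1.5-fold change. 19 genes lie below 0, among them 7 of 9 plexins and both neuropilins, and 26 intervals stay between the dashed lines.

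Among the secreted class 3 ligands no gene passed the test. Sema3b, which acts through neuropilins and stood first in level, had a lowest, median and highest value of 93.54, 209.3 and 398.0 CPM in MM and of 90.47, 174.3 and 309.1 CPM in SHAM. Its values spread 4.40-fold from the lowest library (SHAM8) to the highest (MM5), the widest range of the 30 tested genes, and the groups covered nearly the same range. The difference was 0.20 ± 0.25 on the log2 scale (SE; edgeR adjusted p = 0.647, 95% interval -0.32 to 0.72). It was 0.04 without MM5 and 0.32 without SHAM6. Sema3g, a ligand of Nrp2 known from endothelium, had the largest fitted difference of the 30 tested genes in the fit without length offsets. Its CPM was 22.74, 40.29 and 62.67 (lowest, median, highest) in MM and 20.26, 34.41 and 41.67 in SHAM. The 4 highest MM libraries, MM7, MM5, MM8 and MM9, lay above every SHAM library, and the rest of MM lay among them. The log2 fold change was 0.36 ± 0.18 (edgeR adjusted p = 0.244).

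The medians of the other class 3 genes lay near each other in both groups. Sema3f, which repels axons through Nrp2, had medians of 46.35 CPM in MM and 44.61 CPM in SHAM. Sema3e, which binds Plxnd1 without a neuropilin, had medians of 27.80 and 28.51 CPM, and the lowest value was in MM8 at 20.46. The medians of Sema3c were 23.70 and 25.38 CPM, and those of Sema3d 15.17 and 15.55 CPM. Sema3d was set apart by single libraries in both groups, MM5 at 25.94 and SHAM6 at 26.06 CPM, where the next highest values were 17.40 and 17.66. Sema3a did not exceed 0.862 CPM in any of the 18 libraries, with medians of 0.245 in MM and 0.279 CPM in SHAM, a level at which a difference between groups was not detectable.

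The transmembrane class 4 ligands also gave no gene past the test. Sema4f, first of its class in level, had a lowest, median and highest CPM of 61.01, 105.5 and 128.1 in MM and 89.54, 105.1 and 117.8 in SHAM. MM5 was lowest and MM4 highest of all, and the medians were nearly equal. Its log2 fold change was -0.04 ± 0.10 (edgeR adjusted p = 0.844) and its sign turned to 0.03 without MM5. Sema4d, the ligand of Plxnb1 and of the immune receptor Cd72, had medians of 46.55 and 48.46 CPM (-0.11 ± 0.07). Its highest values were in SHAM8 (62.74 CPM) and SHAM7 (54.84 CPM), the libraries highest in skeletal muscle markers. The part of muscle RNA in these values was not tested. Sema4b had medians of 37.29 and 36.05 CPM, Sema4c 23.84 and 24.55, and Sema4g 21.14 and 19.50. Sema4a, which immune cells use to stimulate T cells, was the lowest of the class in CPM, with medians of 7.34 in MM and 7.18 in SHAM and a single high library, MM5, at 12.85.

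In classes 5 and 6 no gene passed either. Sema5a, which carries thrombospondin repeats, ran from 118.8 to 209.9 CPM in MM (median 149.5) and from 114.0 to 183.5 CPM in SHAM (median 145.8). The difference of 0.07 ± 0.12 on the log2 scale was smaller than the spread within either group (edgeR adjusted p = 0.728), and it was 0.02 without MM5 and 0.01 without MM7. Sema5b, its relative, had medians of 7.19 and 8.79 CPM, with 8 of 9 MM libraries below the SHAM median (-0.19 ± 0.13, edgeR adjusted p = 0.394). Sema6c, a ligand of plexins A, had a lowest, median and highest CPM of 23.87, 42.81 and 71.81 in MM and 34.21, 45.45 and 71.76 in SHAM. The highest library was nearly equal in both groups, MM5 and SHAM6, and the difference was -0.05 ± 0.21 (edgeR adjusted p = 0.896). Sema6d had the smallest ratio of highest to lowest library of the 30 tested genes, 1.25, medians of 130.6 and 139.3 CPM, and a 95% interval of -0.14 to 0.08. Sema6b had medians of 7.04 and 7.58 CPM. Sema6a is described with its libraries below.

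Sema7a and Plxnc1 form a pair, since the GPI-anchored Sema7a binds plexin C1 as well as beta-1 integrin. Their promoter windows, shown above, hold 2 and 4 GC boxes. Sema7a had a lowest, median and highest CPM of 77.91, 108.5 and 127.5 in MM and 97.49, 115.1 and 131.5 in SHAM. MM5, MM9 and MM4 lay below every SHAM library, and the others overlapped. The log2 fold change was -0.17 ± 0.10 (edgeR adjusted p = 0.301). Plxnc1 had 254.2, 325.3 and 379.7 CPM in MM and 353.1, 373.7 and 421.4 CPM in SHAM. Here 7 of 9 MM libraries lay below the lowest SHAM library, while MM4 and MM1 lay within the SHAM range. The log2 fold change was -0.20 ± 0.06 (95% interval -0.33 to -0.07, edgeR adjusted p = 0.0869), so the difference did not pass the test. Without MM5, MM8 and MM9 it was -0.12 (edgeR adjusted p = 0.374).

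Plxnd1, the receptor of Sema3e and a regulator of vessel growth, had the lowest p of the family. Its lowest, median and highest CPM were 161.6, 179.0 and 198.9 in MM and 186.3, 200.4 and 207.2 in SHAM. All 9 MM libraries lay below the SHAM median and 6 lay below every SHAM library. The means were 179 ± 12.01 and 198 ± 7.87 CPM (SD, n = 9 each), and the log2 fold change was -0.14 ± 0.04 (95% interval -0.23 to -0.05, edgeR adjusted p = 0.0687). The gene passed without MM2 (edgeR adjusted p = 0.0436) and without MM7 (0.0330), and the adjusted p was 0.352 without MM5, MM8 and MM9, at -0.10 ± 0.04. The size of the difference was small beside the range of most other genes of the family, and Plxnd1 itself varied only 1.28-fold over all libraries.

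The plexins A are the signalling partners of neuropilins and the receptors of class 6 semaphorins. In Plxna1 and Plxna3, as in Plxnd1, 9 of 9 MM libraries lay below the SHAM median. Plxna1 had a lowest, median and highest CPM of 63.53, 82.49 and 91.92 in MM and 80.94, 92.74 and 99.66 in SHAM, and 3 MM libraries lay below all SHAM libraries. Its log2 fold change was -0.18 ± 0.06 (edgeR adjusted p = 0.122). Plxna3 had 20.46, 24.02 and 25.97 CPM in MM and 24.36, 26.03 and 31.05 CPM in SHAM, and 5 MM libraries lay below all SHAM libraries. Its log2 fold change was -0.19 ± 0.06 (edgeR adjusted p = 0.0950). Plxna2, the most abundant of the 4, had 111.2, 177.1 and 198.3 CPM in MM and 146.2, 183.8 and 222.8 CPM in SHAM. MM5 and MM9 were the lowest of all libraries, and the log2 fold change of -0.17 ± 0.10 (edgeR adjusted p = 0.337) moved to -0.02 without MM5, MM8 and MM9. Plxna4, through which Sema3a acts on sensory axons, had medians of 134.6 and 143.6 CPM, and both the lowest value (MM5, 67.57) and the highest (MM4, 197.60) were in MM.

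The plexins B bind class 4 semaphorins. Plxnb2 had the highest fitted value of the plexins, at 0.27 ± 0.18 on the log2 scale (edgeR adjusted p = 0.377). Its lowest, median and highest CPM were 29.18, 47.25 and 91.74 in MM and 36.27, 40.13 and 56.63 in SHAM. The 2 libraries above all SHAM values were MM5 at 91.74 and MM9 at 75.34 CPM, followed by MM8 at 56.20, and the MM libraries also included the lowest value. Without MM5 alone the log2 fold change was 0.12 (edgeR adjusted p = 0.703), and without MM5, MM8 and MM9 it was -0.09 (0.883). With effective length offsets it was 0.58 ± 0.23 (edgeR adjusted p = 0.155), above the 0.36 of Sema3g in that fit. Those 3 libraries also had the highest macrophage marker levels: the 8 markers summed to 75.37 to 544.1 CPM in MM and 45.79 to 123.6 CPM in SHAM, with none at 0. The part of those markers in the Plxnb2 values was not tested beyond the relations given below. Plxnb1, the receptor of Sema4d, had medians of 29.56 and 30.99 CPM with a 3.84-fold range over libraries (0.01 ± 0.21, edgeR adjusted p = 0.988). Plxnb3, a receptor of Sema5a, had medians of 22.94 and 25.05 CPM.

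The neuropilins bind class 3 semaphorins and also forms of VEGF. Nrp2, the partner of Sema3f and Sema3g, had a lowest, median and highest CPM of 73.43, 86.03 and 102.8 in MM and 78.21, 94.16 and 109.2 in SHAM. Of the MM libraries, 7 lay below the SHAM median, 2 lay below every SHAM library, and the log2 fold change was -0.18 ± 0.07 (edgeR adjusted p = 0.166). Nrp1, the partner of Sema3a, had 43.76, 52.78 and 60.60 CPM in MM and 46.42, 56.32 and 64.74 CPM in SHAM. The groups overlapped over most of their range, and the log2 fold change was -0.08 ± 0.08 (edgeR adjusted p = 0.538).

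**Figure D3:**
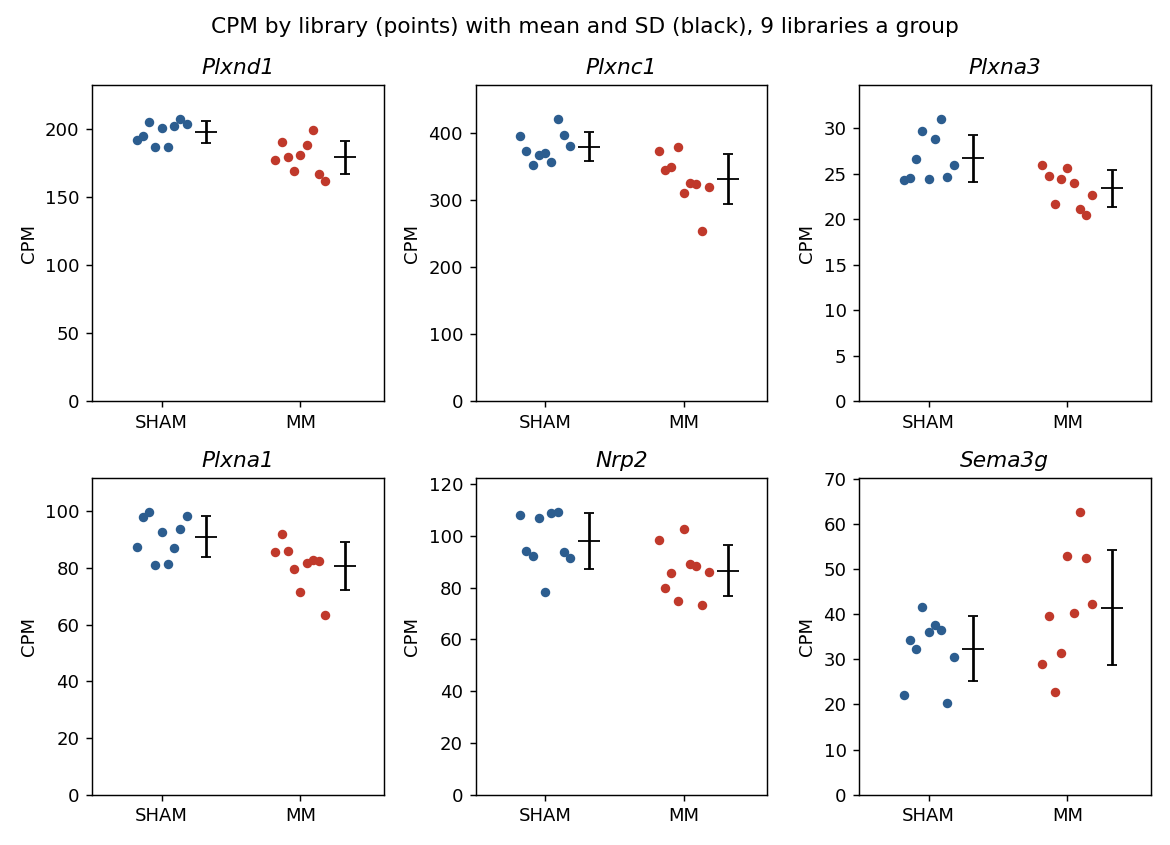
CPM in each of the 9 SHAM (blue) and 9 MM (red) libraries, with mean and SD in black, for Plxnd1, Plxnc1, Plxna3, Plxna1, Nrp2 and Sema3g, the 6 genes of lowest p; each axis starts at 0. The groups overlap in all 6, and in Plxnc1 7 of 9 MM libraries lie below the lowest SHAM library.

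Among the 30 tested genes, the ratio of the highest to the lowest of the 18 libraries ran from 1.25 in Sema6d to 4.40 in Sema3b. To describe these differences between libraries, each gene's deviation from its group mean in log2(CPM + 0.5) was set against the same deviation of the mean level of cell type markers, over 18 libraries. There were 180 such relations (30 genes, 6 marker lists), and p-values came from 100000 two-sided permutations within groups with Benjamini-Hochberg adjustment over the 180. The choice to relate the genes to markers was made after seeing the data. Sema3b followed the Schwann cell markers most closely, with Pearson's r = 0.983 and Spearman's rho = 0.990 (permutation p = 1e-05 for both, the smallest the permutations can give, adjusted p = 0.0002 and 0.00026). Sema4g (r = 0.966, rho = 0.924), Plxnb1 (0.952, 0.934) and Sema5a (0.920, 0.932) followed at the same p. Sema6c (0.888, 0.922) and Sema3d (0.844, 0.806) completed the 6 genes with r above 0.8 for Schwann cell markers, and all 6 had r above 0.8 within MM and within SHAM. Without SHAM8 and MM5, the libraries farthest from the median of the Schwann cell markers, r was 0.975 for Sema3b, 0.941 for Sema4g, 0.925 for Plxnb1, 0.885 for Sema5a, 0.898 for Sema6c and 0.715 for Sema3d.

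A second set followed the sensory neuron markers. Plxna2 had r = 0.905 and rho = 0.839 (permutation adjusted p = 0.00065 and 0.0008), Sema4f r = 0.899 and rho = 0.750, Sema7a r = 0.832 and rho = 0.744, and Sema3f r = 0.805 and rho = 0.585. The farthest libraries here were MM5 and MM9, the lowest in neuronal markers. Without them r was 0.751 for Plxna2, 0.692 for Sema7a, 0.612 for Sema3f and 0.596 for Sema4f. Within SHAM alone r was 0.874, 0.857, 0.825 and 0.850 in the same order, and within MM 0.935, 0.836, 0.844 and 0.908. Plxna4 had r = 0.845 but rho = 0.511 (permutation adjusted p = 0.098). Its pooled r fell to 0.450 without both libraries, so the size of the pooled r depended on them. Within SHAM, which holds neither of them, r was 0.937, and within MM it was 0.831. For Plxnd1 and Plxnc1, the 2 plexins of lowest p in the comparison of groups, r with neuronal markers was 0.327 and 0.346. The permutation adjusted p was 0.39 and 0.37. By rank the relations were closer, with rho = 0.434 and 0.569 (permutation adjusted p = 0.18 and 0.062). Plxnc1 ran against macrophage markers by rank (rho = -0.783, permutation adjusted p = 0.0018), while r was -0.582 (adjusted p = 0.086) and -0.722 without MM5 and MM9. Its rho was also negative with fibroblast (-0.763) and endothelial markers (-0.732), at permutation adjusted p of 0.0043 and 0.0091. Plxna1 had r = 0.732 with neuronal markers and 0.805 with satellite glia markers (permutation adjusted p = 0.014 and 0.0036). Without MM5 and MM9 these were 0.635 and 0.471. Among the satellite glia relations, Plxna2 was next with r = 0.785 and rho = 0.827 (permutation adjusted p = 0.0079 and 0.0024), and with r = 0.568 without both libraries.

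Macrophage markers were followed by Plxnb2 (r = 0.926, rho = 0.874) and Sema4a (r = 0.903, rho = 0.876), both at permutation adjusted p = 0.0002 for r and 0.00026 for rho. Without MM5 and MM9, r was 0.804 and 0.794. Both genes ran against the neuronal markers about as closely, Plxnb2 with r = -0.917 and Sema4a with r = -0.899 (permutation adjusted p = 0.0002 and 0.0009), and with -0.813 and -0.728 without both libraries. The other relations with r below -0.8 were Plxna2 with macrophage markers (-0.846, and -0.596 without both libraries) and Plxna4 with endothelial markers (-0.803, and -0.569 without MM5 and MM4). Plxnb2 also had r above 0.8 with endothelial (0.843) and fibroblast markers (0.843). Sema3b (0.904), Plxnb1 (0.838), Sema4c (0.828) and Sema4g (0.814) had r above 0.8 with fibroblast markers as well, and MM5 was the highest library in the Schwann, fibroblast, endothelial and macrophage lists alike. The marker lists were therefore not independent of each other over these libraries. Every library contributes 1 point to each relation, and the points share their sequencing depth and the TMM scaling.

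**Figure D4:**
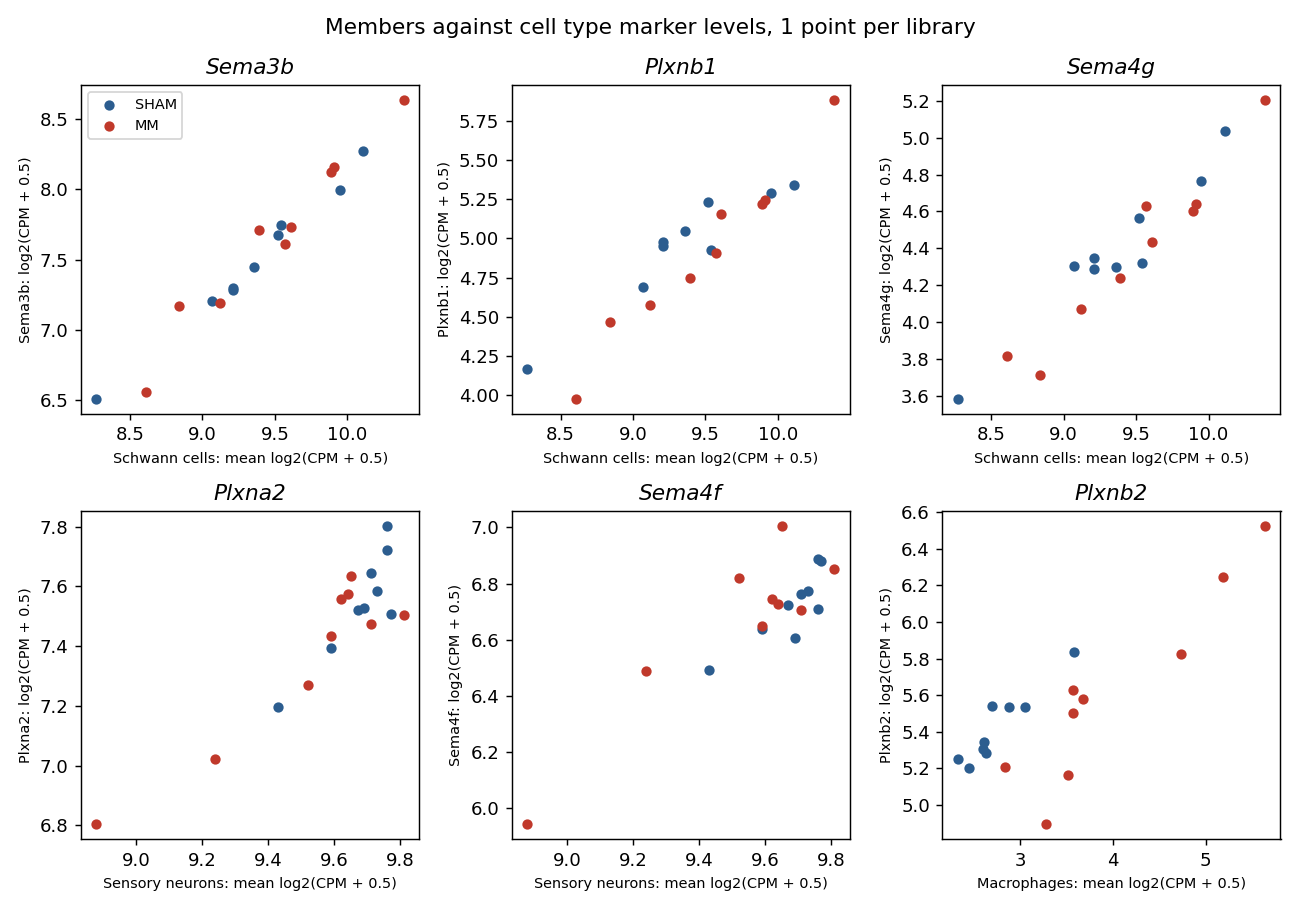
Level of 6 genes against the mean level of cell type markers, both in log2(CPM + 0.5), 1 point for each of the 9 SHAM (blue) and 9 MM (red) libraries. Sema3b, Plxnb1 and Sema4g rise with Schwann cell markers in both groups, Plxna2 and Sema4f with neuronal markers, and Plxnb2 with macrophage markers, where MM5 and MM9 lie far to the right.

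With the Schwann cell marker level as a covariate in the edgeR fit, a setting added after seeing the data, still 0 of the 30 genes passed, against 2.59% of all genes. The standard error shrank from 0.25 to 0.05 for Sema3b and from 0.12 to 0.05 for Sema5a, and their differences were 0.04 and 0.01. The difference of Sema6c, another gene that followed these markers, moved from -0.05 to -0.20 (edgeR adjusted p = 0.233). Among the genes described in full, the lowest adjusted p were 0.0528 for Plxna3, 0.0665 for Plxnd1, 0.0911 for Plxnc1 and 0.0983 for Nrp2.

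Sema6a, a class 6 ligand of Plxna2 and Plxna4, had an unequal spread within MM. It had 37.51 CPM in MM4 and 37.65 CPM in MM8, and between 15.09 and 18.72 CPM in the other MM libraries. In SHAM it lay between 13.27 and 22.80 CPM with a median of 17.78. The 2 MM libraries were therefore above all others, the rest of MM was inside the SHAM range, and the group difference was 0.25 ± 0.19 on the log2 scale (edgeR adjusted p = 0.444). Genes that sensory neurons switch on after nerve injury were looked up after these values were seen. Atf3, the transcription factor most used as a mark of injured sensory neurons, lay at 83.02 CPM in MM4 and 84.74 CPM in MM8, and at no more than 27.26 CPM elsewhere (SHAM8). Sprr1a lay at 88.68 and 152.74 CPM in these libraries and at no more than 37.49 elsewhere, and the neuropeptide gene Gal at 44.00 and 68.98 CPM and at no more than 20.28 elsewhere. None of the 3 passed the comparison of MM with SHAM (edgeR adjusted p = 0.200, 0.282 and 0.219). MM4 also had the highest Plxna4, Plxna2 within MM, Sema4f and Plxnc1 within MM. MM8 had the lowest Plxnc1, Nrp2, Plxna3 and Sema3e within MM. Plxna4 was next highest in MM8 (155.63 CPM), and Nrp2 was next lowest within MM in MM4 (74.83 CPM).

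**Figure D5:**
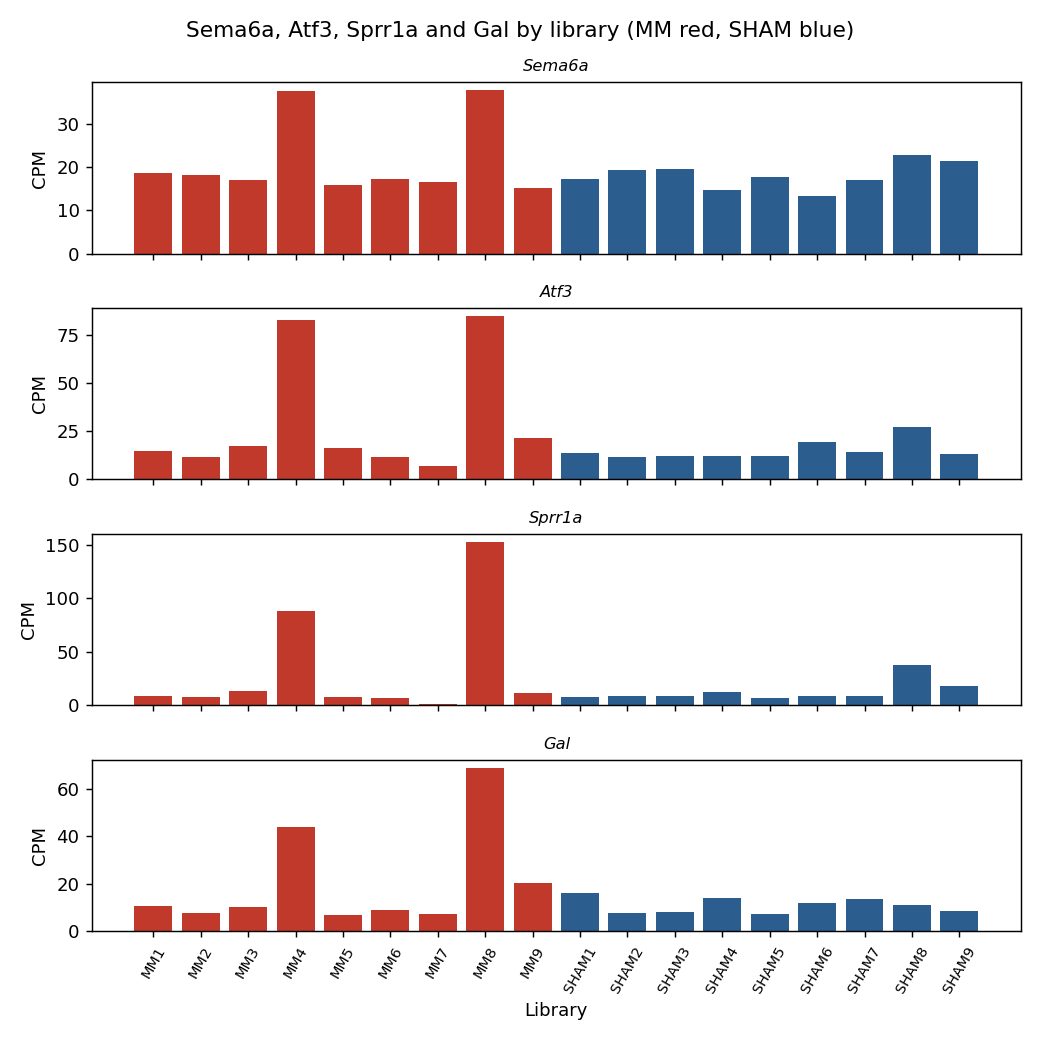
CPM of Sema6a, Atf3, Sprr1a and Gal in each MM (red) and SHAM (blue) library, as bars from 0. MM4 and MM8 are the highest libraries for all 4 genes, at 37.51 and 37.65 CPM for Sema6a.

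The transcript makeup differed among the genes. Across the 31 genes 226 transcripts had an entry, 100 of them protein-coding. One transcript held at least 90% of the TPM in 13 genes, among them Plxna4-201, Sema3g-201, Sema5a-201, Sema7a-201, Plxnc1-201 and Plxna1-202, and under 60% in 13 others. In Plxnb2 the coding Plxnb2-202 (6497 bases) held 52.1 ± 10.2% of TPM in MM (SD, n = 9) and 65.2 ± 9.51% in SHAM (n = 9). The processed transcript Plxnb2-205, of 834 bases, held 44.2 ± 7.44% in MM (34.4% to 56.7%) and 30.2 ± 8.64% in SHAM (19.2% to 46.9%), but only 6.91% and 3.93% of the gene's reads. In Plxnb3 the retained-intron transcript Plxnb3-202 held 8.84 ± 4.47% of TPM in MM and 17.0 ± 4.60% in SHAM. The groups overlapped in each case, these shares rest on reads that the quantifier divided between overlapping transcripts, and no test was made on them. The antisense genes Plxna4os1, Plxna4os2 and Plxna4os3 lay at no more than 0.61 CPM in any library. Whether antisense reads were counted in Plxna4 was not tested.

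Partners of the family were read from a list of 52 co-receptors, ligands and signal transducers, of which 51 passed the filter and Timd2 had 0 reads. One gene rose in MM and 0 fell, against 2.75% of all genes higher and 0.241% lower; at an unadjusted p under 0.05, 10 were higher and 4 lower, against 13.9% and 8.6%. The gene that rose was Cd72, a receptor of Sema4d on B cells and macrophages. Its lowest, median and highest CPM were 0.985, 2.88 and 12.56 in MM and 0.853, 1.37 and 3.11 in SHAM. MM9, MM5, MM8 and MM1 lay above every SHAM library, at 12.56, 12.53, 8.66 and 3.25 CPM. The log2 fold change was 1.75 ± 0.46 (edgeR adjusted p = 0.0474), and the call was lost in 17 of 27 alternatives, with 0.55 (edgeR adjusted p = 0.587) without MM5, MM8 and MM9. These are the libraries with the most Ighg2b and the most macrophage marker RNA, and the part of either cell type in Cd72 was not tested.

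The partners next in line did not pass edgeR's test. Rap1a, a small GTPase that plexins switch off, had 63.3 ± 19.9 CPM in MM (SD, n = 9) and 43.7 ± 5.47 CPM in SHAM (n = 9), and the SHAM median was below all 9 MM libraries (edgeR adjusted p = 0.0531). Flt4, the receptor of VEGF-C that can pair with Nrp2, lay at 3.05 ± 0.893 and 1.90 ± 0.527 CPM (edgeR adjusted p = 0.0597). The kinase Fyn lay at 119 ± 35.4 and 89.4 ± 4.95 CPM, with 8 MM libraries above every SHAM library (edgeR adjusted p = 0.0857). Trem2, which with Tyrobp can form a receptor complex with Plxna1 on myeloid cells, lay at 2.06 ± 1.92 and 0.804 ± 0.334 CPM (edgeR adjusted p = 0.0937). DESeq2 called 5 partners, Rap1a, Flt4, Fyn, Trem2 and Cd72, against 6.98% of all genes it tested. The abundant neuronal partners L1cam and Cntn2 had medians of 588.8 and 276.0 CPM in MM and 660.1 and 308.3 CPM in SHAM (edgeR adjusted p = 0.207 and 0.227). The collapsin response proteins that carry class 3 signals to the cytoskeleton, Dpysl2, Dpysl3, Dpysl4, Dpysl5 and Crmp1, all had fitted values lower in MM, between -0.16 and -0.02 on the log2 scale, and none passed. Of the 51 tested partners, 28 had a fitted value lower in MM, against 51.1% of all genes tested.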

How the data were processed

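RNA of 18 whole-ganglion libraries, 9 per group, was quantified by the authors with Salmon 1.5.2, with GRCm39 and DESeq2 (no version) named, per the submitters' processing notes. The deposited expected counts (estimated reads per transcript) were not scaled by the authors, and the deposited TPM beside them take effective transcript length into account, per the file headers. The authors' table of normalized gene counts, a signal that the authors divided by a size per library, served only as an alternative for levels. The series design speaks of 9 mice per group, so a library stands for 1 mouse.

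Expected counts were summed per gene through GENCODE M21, which annotates an older build, and rounded; 3620 of 137562 transcripts had no gene there and held 0.85% to 1.339% of reads. Promoter windows and their positions are RefSeq's for GRCm38.p6. Genes were kept by filterByExpr, scaled by TMM and tested with edgeR 4.0.16 (robust quasi-likelihood test, group as the only term, Benjamini-Hochberg over 15774 genes, threshold 0.05) in R 4.3.3. The filter and the test were run on simulated counts with known changes, drawn with the means and spread of SHAM. Calls and their direction were scored there, and the size of the fold changes was not. Gene TPM are sums over transcripts. Alternatives used DESeq2 1.42.0 and limma 3.58.1; sums, relations and plots were made in Python 3.11.15 (scipy 1.17.1, pandas 2.3.3, numpy 2.4.6, matplotlib 3.10.9). Low counts limit the precision of Sema3a, Sema5b, Sema6b and Sema4a most.

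Genes described in full are the 8 of lowest p, the most abundant of each class, and partners past the threshold or else the 4 of lowest p; further genes, among them Rap1a, Flt4, Fyn, Trem2, L1cam, Cntn2, Atf3, Sprr1a and Gal, were named after their values were seen. The members and all gene lists were chosen with earlier results of these data known. Markers of myeloma and plasma cells, macrophages, endothelium, sensory neurons, satellite glia, Schwann cells, fibroblasts, pericytes, erythroid cells, T cells, skeletal muscle, fat and neutrophils were read beside the results.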

Additional observations from a re-analysis of the deposited data

Results flagged for a closer look

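Single libraries stood apart from the rest of their group in 6 of the 62 sets of values checked (31 genes, 2 groups), by a gap to the nearest library above Dixon's critical value (95%) for 9 values; chance gives about 1 in 20. Plxnb2 in SHAM6 was at 56.63 CPM, with the next SHAM library at 45.94. Sema3a in SHAM6 was at 0.86 CPM, with the next at 0.32, which is a handful of reads. Sema3d was at 25.94 CPM in MM5 and at 26.06 CPM in SHAM6, with the next libraries at 17.40 and 17.66. Sema4a in MM5 was at 12.85 CPM (next 9.23), and Sema4g in MM5 at 36.37 CPM (next 24.42). All 6 values were the highest of their group, and all lay in MM5 or SHAM6. Those 2 libraries were also the highest of their groups in Schwann cell markers (mean log2 level 10.39 and 10.11), fibroblast markers (8.23 and 7.75) and macrophage markers (5.64 and 3.58), and the lowest in neuronal markers (8.88 and 9.43). The part of those markers in the 6 values was not tested.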

How the results depend on the processing

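The 0 calls among 30 genes of the family held under RLE size factors, no filter on low counts, effective length offsets, limma, the Schwann covariate, and without SHAM7 and SHAM8 or the trio MM5, MM8 and MM9; DESeq2 gave 2, and leaving out 1 library at a time gave 0 to 1 (Plxnd1 without MM2 or MM7). The single call among the partners (Cd72) became 5 with DESeq2, where 6.98% of all genes were called. It became 0 with no filter, limma, the Schwann covariate and the replicate block, and without SHAM7 and SHAM8 or MM5, MM8 and MM9. Leaving out 1 library at a time gave 0 to 5 partners, against 0.531% (without MM5) to 6.39% (without MM2) of all genes. It gave 0 without any one of MM5, MM8, MM9, SHAM1, SHAM2, SHAM3, SHAM4, SHAM5, SHAM7, SHAM8 and SHAM9, 2 without MM1, MM4 or MM7, 3 without MM3 or SHAM6, and 5 without MM2. The sign turned for Sema6c without MM3 (0.010), MM4 (0.009), MM9 (0.032) or SHAM6 (0.035), for Sema4f without MM5 (0.033) and without MM5, MM8 and MM9 (0.062), and for Plxnb2 without MM5, MM8 and MM9 (-0.088); the cause was not tested. With 1 library left out, Sema6c ran from -0.154 to 0.035 and Sema4f from -0.084 to 0.033. Over 27 alternatives the log2 fold change ran from -0.16 to -0.08 for Plxnd1 (adjusted p 0.0124 to 0.51) and from -0.26 to -0.12 for Plxnc1 (0.0344 to 0.374). Over all genes, 471 calls became 1379 with DESeq2, 113 with limma, 333 with no filter, 35 without SHAM7 and SHAM8, 60 without MM5, MM8 and MM9, 84 to 1014 with 1 library left out, and 8 with the replicate block, where 0 genes of the family passed. Same-numbered libraries correlated between -0.276 and 0.339 and 0 of 9 correlated best with their own number. These correlations showed no pairing by number. They cannot exclude one, since other differences between libraries could hide it. Sema3a, at 3 to 18 reads per library, failed edgeR's filter; DESeq2 and edgeR without a filter tested it and did not call it. For the most abundant gene of each class, the ratio of MM to SHAM mean level moved by less than its spread when the authors' normalized counts, or coding transcripts alone, replaced TPM. This bound is loose for Plxnb2, at 23.5 ± 9.73 TPM in MM and 16.8 ± 3.46 TPM in SHAM (SD, n = 9 each). Its processed transcript Plxnb2-205 held 44.2% of TPM in MM and 30.2% in SHAM, so its ratio depends on the transcripts counted.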
